A study of Mus musculus with 10 samples.

Results

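The 10 genes described here, Gfap, S100b, Slc1a3, Slc1a2, Aqp4, Gja1, Gjb6, Aldh1l1, Aldoc and Sox9, are ones that astrocytes transcribe strongly in the adult brain. They were taken by symbol: each has 1 probe set annotated to that gene alone, so 10 of 21789 probe sets (10 of 19938 genes) were followed, and none was lost. The RNA came from whole brains of male C57BL/6J mice killed at postnatal day 70. Mothers of the ethanol groups drank 10% ethanol in water from gestational day 0 until their pups reached postnatal day 10, and mothers of the control groups drank water over the same period, so the adult offspring were compared long after exposure had ended. Experiment 1 had 2 ethanol and 2 control arrays, each of RNA pooled from 3 brains, and experiment 2 had 3 ethanol and 3 control arrays, each of RNA pooled from 2 brains. A pool averages its mice, so differences between single animals were not seen, and the sources used here do not give the litters behind each pool.

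Astrocytes are the glial cells that clear glutamate from synapses, take up potassium and water at their endfeet around blood vessels, are coupled to each other by gap junctions, and supply neurons with metabolic substrates. Their filament protein GFAP is the classical measure of a reactive state after injury or inflammation, and developmental alcohol is known to act on glia as well as on neurons. In RNA from a whole brain, fewer astrocytes and less RNA per astrocyte cannot be told apart. Several of the genes are also used by other cells: Aldoc by Purkinje cells of the cerebellum, S100b by some oligodendrocytes, Aqp4, Gja1 and Sox9 by ependymal cells, and Gja1 by cells of the meninges.

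None of the 10 genes passed the threshold in either experiment or over both. Over both experiments, 8 of the 10 had lower values on the ethanol arrays, and the median difference, ethanol minus control, was -0.06 log2 units. The largest was that of Gfap, at -0.14 ± 0.06 log2 units (SE, 5 ethanol against 5 control arrays), or -9.40% on the linear scale. Aqp4 and Sox9 each differed by -0.11, whereas the glutamate transporters Slc1a3 and Slc1a2 and the glycolytic enzyme Aldoc differed by -0.03, 0.02 and 0.01. The 95% intervals of the 10 genes lay between -0.27 and 0.11 log2 units. The limma fit called 0% of all probe sets at adjusted p under 0.05 over both experiments, 0% in experiment 1, 0% in experiment 2 and 0% for the difference between the experiments. At an unadjusted p under 0.05 it gave 1674 lower and 1029 higher probe sets over both experiments, 1074 and 877 in experiment 1, 1348 and 824 in experiment 2, and 707 and 725 for the difference between the experiments. Without ethanol replicate 3 of experiment 2 the median of the 10 genes over both experiments was -0.0351, and it was -0.028 after quantile normalization and -0.0825 with each array centred on its median. Leaving out ethanol replicate 1 of experiment 1, which left 1 ethanol array there, gave 235 probe sets at adjusted p under 0.05 in experiment 1 and 94 for the difference between the experiments. With any single array left out, 0 of the 10 genes passed over both experiments.

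The share of lower values depended on level. All probe sets were sorted by their mean level over the 10 arrays and divided into 4 classes of equal size, and 8 of the 10 genes belonged to the highest class and 2, Gfap and Aldh1l1, to the next one down. Neuronal markers (11 of 12) and myelin markers (10 of 11) of the labelled tissue, brain, were mostly in that highest class too. Over both experiments 54.4% of all probe sets were lower on the ethanol arrays, but 77.5% of those in the highest class were, and 6 of the 8 astrocyte genes in that class were. The median difference was -0.04 in the highest class, -0.05 in the class below it and -0.01 over all probe sets. At an unadjusted limma p under 0.05, Gfap and Aqp4 were lower (2 of 10), against 7.68% of all probe sets, 15.3% of the class that holds Gfap and 10.5% of the class that holds Aqp4.

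**Figure D1:**
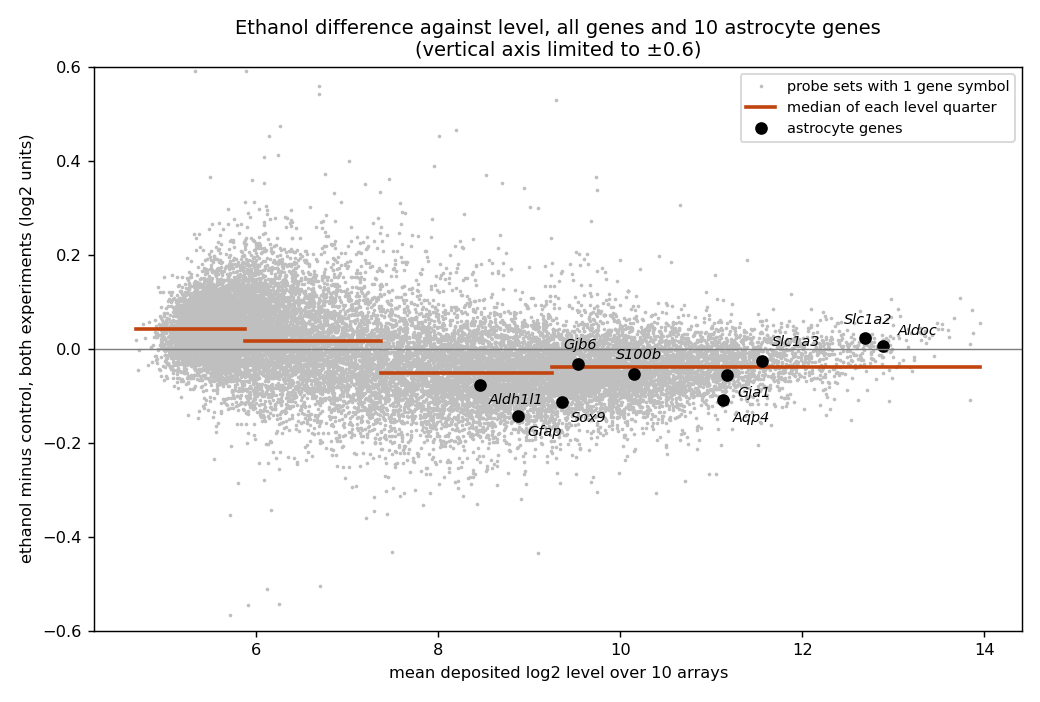
Ethanol minus control over both experiments (vertical axis, log2 units, limited to ±0.6) against the mean deposited log2 level over 10 arrays, for 21789 probe sets (grey), the median of each level class (red bars) and the 10 astrocyte genes (black). The red bars run from 0.04 in the lowest class to -0.05 and -0.04 in the upper ones, and 6 of the 8 astrocyte genes in the highest class lie below 0.

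The stretches of DNA just before the start sites are shown for 3 of the genes: Gfap and Gja1, whose ethanol and control arrays did not overlap in experiment 2, and S100b, whose arrays did. Each is the 250 bases before the annotated start, from RefSeq on GRCm38.p6, written 5′ to 3′ on the gene's strand. Gfap is taken from chr11:102897201-102897450, minus strand, Gja1 from chr10:56377050-56377299, plus strand, and S100b from chr10:76253586-76253835, plus strand. Capitals mark matches to 4 motifs named here by the proteins that bind them: the NFI motif TTGGC, the SOX core ACAAT, the STAT motif TTCNNNGAA and the TATA box TATAAA, each searched on both strands.
Gfap: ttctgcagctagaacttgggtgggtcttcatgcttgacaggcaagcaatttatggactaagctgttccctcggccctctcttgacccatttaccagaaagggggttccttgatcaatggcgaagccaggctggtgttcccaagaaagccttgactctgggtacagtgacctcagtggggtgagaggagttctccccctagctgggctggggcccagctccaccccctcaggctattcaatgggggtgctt
Gja1: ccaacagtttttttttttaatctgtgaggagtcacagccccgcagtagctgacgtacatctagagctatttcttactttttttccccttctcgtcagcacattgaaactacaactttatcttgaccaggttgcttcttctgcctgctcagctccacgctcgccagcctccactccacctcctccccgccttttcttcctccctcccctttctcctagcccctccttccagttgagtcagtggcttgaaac
S100b: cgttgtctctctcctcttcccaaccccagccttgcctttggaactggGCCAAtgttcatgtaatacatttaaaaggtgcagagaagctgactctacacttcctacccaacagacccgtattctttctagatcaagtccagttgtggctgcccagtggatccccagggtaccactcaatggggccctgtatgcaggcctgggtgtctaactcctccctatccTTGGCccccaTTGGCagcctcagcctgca

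S100b held 3 NFI motifs, 2 of them beginning 29 and 19 bases before the start, whereas none of the 4 motifs' letters was found in the windows of Gfap and Gja1. NFI proteins and SOX9 drive the formation of astrocytes in the embryo, and STAT3 acts on Gfap in reactive astrocytes, which is why these motifs were searched. The 9 windows searched cover 8 of the genes (Aldoc has 2 annotated starts) and leave out Aqp4 and Sox9. Of these windows 3 held an NFI motif, against 41.5% of 32841 promoter windows of the same length. A SOX core was in 2 of the 9, against 27.7% of all windows, a STAT motif in 2, against 7.02%, and a TATA box in 1, against 12.4%. Slc1a3 held the SOX, STAT and TATA letters. A match is a run of letters and not a measured binding site.

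Gfap encodes the main intermediate filament of astrocytes. Its log2 levels were 8.78 and 8.92 in ethanol pools of experiment 1, against 8.99 and 8.80 in control pools. In experiment 2 they were 8.76, 8.81 and 8.74 on the ethanol arrays, against 8.84, 9.07 and 9.02 in control pools. The groups overlapped in experiment 1 and did not in experiment 2. The difference was -0.04 ± 0.09 log2 units (SE) in experiment 1 and -0.21 ± 0.08 in experiment 2. Over both experiments the 95% interval ran from -0.27 to -0.01 (limma adjusted p = 0.379), and the exact permutation test of treatment within experiments gave a two-sided p of 0.0833. The 3 controls of experiment 2 themselves spanned 0.23 log2 units, more than the difference in that experiment, and the 2 controls of experiment 1 differed by 0.20.

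S100b encodes a calcium-binding protein that astrocytes also secrete. Its levels were 10.15 and 10.08 in ethanol pools of experiment 1, against 10.27 and 10.12 in control pools, and 10.17, 10.18 and 10.06 in ethanol pools of experiment 2, against 10.20, 10.30 and 10.02 in control pools. The groups overlapped in both experiments, and the 3 controls of experiment 2 spanned 0.29 log2 units, the widest range of any of the 10 genes in that group. The difference over both was -0.05 ± 0.06 (limma adjusted p = 0.707). It was -0.0202 without control replicate 2 and -0.0986 without control replicate 3 of experiment 2, -0.0247 without control replicate 1 of experiment 1, -0.0355 without ethanol replicate 3 of experiment 2, -0.0243 after quantile normalization and -0.0809 after median centring.

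Slc1a3 and Slc1a2 encode the astrocytic glutamate transporters, the first prominent in Bergmann glia of the cerebellum and the second carrying most uptake in the forebrain. Slc1a3 was the most even of the 10 genes, with levels of 11.52 and 11.54 in ethanol pools of experiment 1, against 11.59 and 11.57 in control pools, and 11.54, 11.55 and 11.55 in ethanol pools of experiment 2, against 11.59, 11.55 and 11.54 in control pools. Its within-group SD was 0.019 log2 units, where the median probe set of the highest class had 0.066. The ethanol arrays lay below the controls without overlap in experiment 1, and overlapped them in experiment 2. The difference over both was -0.03 ± 0.04, with a 95% interval from -0.10 to 0.05 (limma adjusted p = 0.782). It was -0.0166 after quantile normalization and -0.0531 after median centring.

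Slc1a2 had 12.70 and 12.76 in ethanol pools of experiment 1, against 12.71 and 12.60 in control pools, and 12.67, 12.68 and 12.71 in ethanol pools of experiment 2, against 12.67, 12.72 and 12.70 in control pools. The groups overlapped in each experiment. Its difference over both was 0.02 ± 0.04, with a 95% interval from -0.07 to 0.11 (limma adjusted p = 0.837), and it was -0.0047 after median centring and 0.00031 after quantile normalization. It ran from -0.00215, without control replicate 2 of experiment 1, to 0.0344, without control replicate 2 of experiment 2, and was 0.00577 without ethanol replicate 2 of experiment 1. On the linear scale the 95% intervals ran from -6.89% to 3.63% for Slc1a3 and from -4.42% to 7.96% for Slc1a2.

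**Figure D2:**
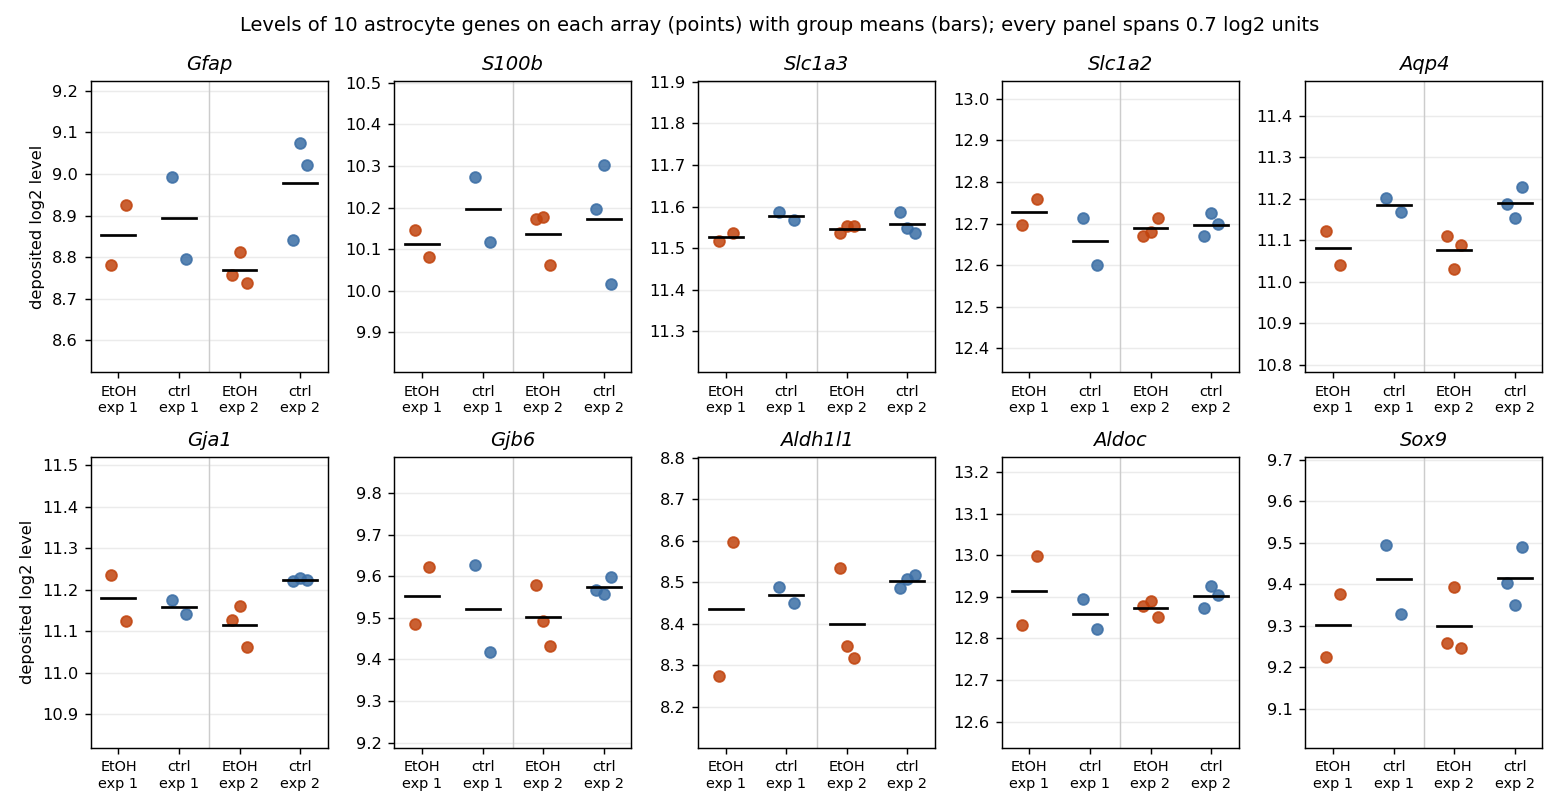
Deposited log2 level of each of the 10 genes (vertical axes, each spanning 0.7 log2 units around the gene's mean) on every array (points), by treatment within experiment, ethanol in orange and control in blue, with group means as bars. Ethanol and control points are separate for Aqp4 in both experiments, for Slc1a3 in experiment 1, and for Gfap and Gja1 in experiment 2. They overlap in all other panels.

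Aqp4, Gja1 and Gjb6 encode membrane channels: the water channel of perivascular endfeet and connexins of astrocytic gap junctions. Aqp4 had 11.12 and 11.04 in ethanol pools of experiment 1, against 11.20 and 11.17 in control pools, and 11.11, 11.03 and 11.09 in ethanol pools of experiment 2, against 11.19, 11.15 and 11.23 in control pools. It was the one gene of the 10 whose arrays did not overlap in either experiment. Every ethanol array lay below every control for 19.2% of all probe sets in experiment 1 and 11.6% in experiment 2. The share for which this held in both experiments was not computed. For Aqp4 the difference was -0.10 ± 0.06 in experiment 1 and -0.11 ± 0.05 in experiment 2. Over both experiments it was -0.11 ± 0.04, with a 95% interval from -0.19 to -0.03 (limma adjusted p = 0.333). The exact permutation test gave 0.0167, two-sided, which is the smallest value that its 120 assignments allow and was not corrected for the 10 genes tested that way.

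Gja1 had 11.24 and 11.12 in ethanol pools of experiment 1, against 11.18 and 11.14 in control pools, and 11.13, 11.16 and 11.06 in ethanol pools of experiment 2, against 11.22, 11.23 and 11.22 in control pools. The ethanol arrays lay on either side of the controls in experiment 1 and all below them in experiment 2, where the controls spanned only 0.0062 log2 units. The differences were 0.02 ± 0.06 in experiment 1 and -0.11 ± 0.05 in experiment 2, and the difference between them was -0.13 ± 0.08, experiment 2 minus experiment 1 (limma adjusted p = 0.840). Over both experiments Gja1 differed by -0.06 ± 0.04 (limma adjusted p = 0.586). That difference was -0.0348 without ethanol replicate 3 of experiment 2, -0.0859 without ethanol replicate 1 of experiment 1 and -0.0318 after quantile normalization.

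Gjb6 had 9.48 and 9.62 in ethanol pools of experiment 1, against 9.63 and 9.42 in control pools, and 9.58, 9.49 and 9.43 in ethanol pools of experiment 2, against 9.57, 9.56 and 9.60 in control pools. The groups overlapped in both experiments, and the difference over both was -0.03 ± 0.05 (limma adjusted p = 0.823), or 0.01 after quantile normalization and -0.06 after median centring. It lay between -0.0736, without control replicate 2 of experiment 1, and -0.00714, without ethanol replicate 3 of experiment 2, when single arrays were left out, and was -0.0624 without ethanol replicate 2, -0.0201 without ethanol replicate 1 and -0.0089 without control replicate 1 of experiment 1, and -0.0193 without control replicate 3 of experiment 2.

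Aldh1l1, a folate enzyme used as a general astrocyte marker, and Aldoc, the aldolase of brain glycolysis, are the metabolic members. Aldh1l1 had 8.27 and 8.60 in ethanol pools of experiment 1, against 8.49 and 8.45 in control pools, and 8.53, 8.35 and 8.32 in ethanol pools of experiment 2, against 8.49, 8.51 and 8.52 in control pools. The ethanol pools spanned 0.32 log2 units in experiment 1 and 0.22 in experiment 2, against 0.04 and 0.03 among the controls, and they overlapped the controls in each. The difference over both was -0.08 ± 0.06 (limma adjusted p = 0.609). It was -0.0331 without ethanol replicate 1 and -0.132 without ethanol replicate 2 of experiment 1, and -0.0499 without ethanol replicate 3 of experiment 2, and -0.0495 after quantile normalization.

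Aldoc had 12.83 and 13.00 in ethanol pools of experiment 1, against 12.90 and 12.82 in control pools, and 12.88, 12.89 and 12.85 in ethanol pools of experiment 2, against 12.87, 12.93 and 12.90 in control pools. The groups overlapped in both experiments. The difference over both was 0.01 ± 0.04 (limma adjusted p = 0.970), with a 95% interval from -0.09 to 0.10, and it was -0.02 after quantile normalization and after centring each array on its median. It ran from -0.0276, without ethanol replicate 2 of experiment 1, to 0.0234, without ethanol replicate 1 of that experiment, and was -0.0134 without control replicate 2 there.

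Sox9 encodes the transcription factor that starts gliogenesis in the embryo and stays on in adult astrocytes. It had 9.23 and 9.38 in ethanol pools of experiment 1, against 9.50 and 9.33 in control pools, and 9.26, 9.39 and 9.25 in ethanol pools of experiment 2, against 9.40, 9.35 and 9.49 in control pools. In both experiments 1 of the ethanol arrays reached above the lowest control. The difference was -0.11 ± 0.09 in experiment 1 and -0.11 ± 0.07 in experiment 2, and -0.11 ± 0.05 over both (limma adjusted p = 0.404).

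The experiments are set side by side in the plot of differences with intervals. In experiment 1, 6 of the 10 genes were lower on the ethanol arrays, against 51.8% of all probe sets, with a median of -0.04 that was 0.02 after quantile normalization and 0.02 without control replicate 1. In the highest class 67.2% of probe sets were lower there, against 4 of the 8 astrocyte genes, and in the class below it 70.7%, against 2 of 2. Aqp4 and Slc1a3 had no overlap there, 2 of 10, where 19.2% of all probe sets had every ethanol array below every control. In experiment 2 all 10 genes were lower, against 54.9% of all probe sets and 73.2% of the highest class, and the median was -0.09, or -0.129 after median centring and -0.0596 after quantile normalization. At an unadjusted limma p under 0.05 Gfap and Aqp4 were lower in experiment 2, 2 of 10 against 6.19% of all probe sets. That share was 11.6% in the class that holds Gfap and 7.14% in the class that holds Aqp4. Gfap, Aqp4 and Gja1 had no overlap there, 3 of 10 against 11.6% of all probe sets. In the highest class this share was 20%, and in the class below it, which holds Gfap, 17.2%. The difference between the experiments did not pass for any of the 10 genes (limma adjusted p from 0.840 to 0.998).

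**Figure D3:**
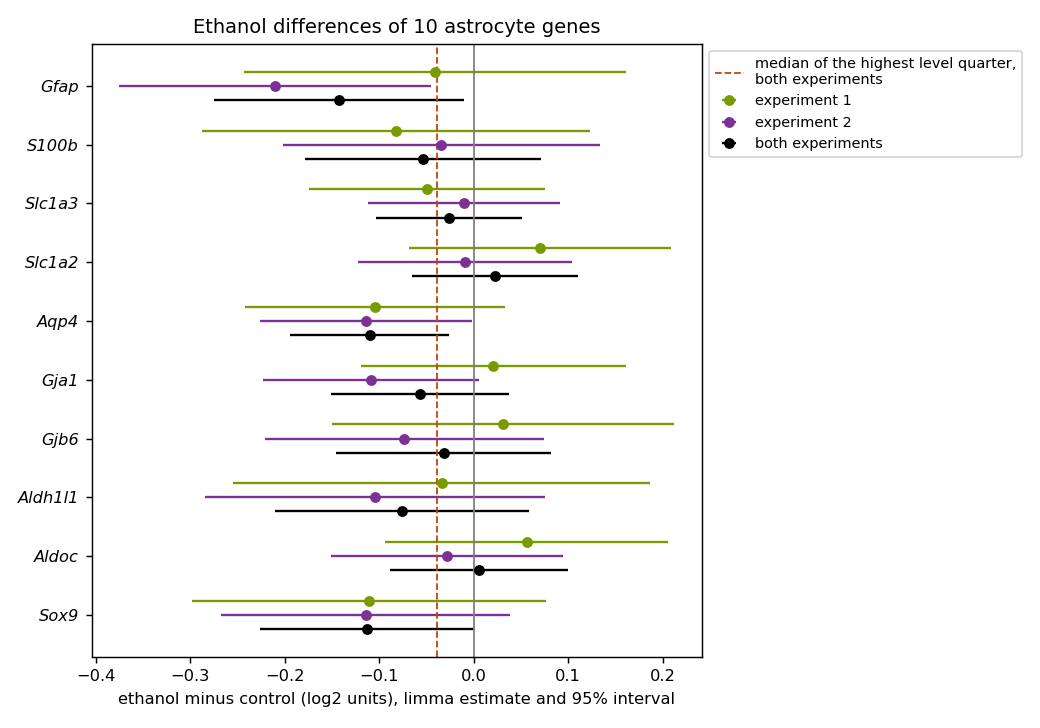
Ethanol minus control (horizontal axis, log2 units, points) with 95% intervals from limma (bars) for the 10 genes in experiment 1 (green), experiment 2 (purple) and over both (black). The dashed line marks the median of the highest level class over both experiments, -0.04, which lies inside all 10 black intervals.

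Array by array, the number of lower genes varied among the ethanol pools. Set against the control mean within each experiment, 8 and 5 of the 10 genes were lower on ethanol replicates 1 and 2 of experiment 1, with medians of -0.05 and 0.00 log2 units. On ethanol replicates 1, 2 and 3 of experiment 2, 7, 9 and 9 genes were lower, with medians of -0.02, -0.04 and -0.13. Aqp4, Slc1a3 and Sox9 lay below the control mean on all 5 ethanol arrays, 3 of 10 genes against 11.9% of all probe sets and 19.7% of the highest class. The control pools set a scale for this: in experiment 1 all 10 genes were higher on control replicate 1 than on control replicate 2, by a median of 0.09, as were 79.7% of the probe sets in the highest class. For 8 of the 10 genes these 2 controls differed by more than the ethanol difference of that experiment. In experiment 2 the ethanol difference was larger than the range of the 3 controls for 4 genes, Aqp4, Aldh1l1, Gja1 and Gjb6. The ethanol arrays of Aldh1l1 and Gjb6 spanned 0.22 and 0.15 log2 units there and overlapped their controls. Neither of these counts against the control pools was taken over all probe sets.

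Other genes of astrocyte biology, on 8 lists by function, gave 0 that passed at adjusted p under 0.05 by limma in either experiment or over both. Transporters and enzymes of the glutamate and GABA cycle were lower in 9 of 10 genes measured (median -0.05), and genes for potassium, bicarbonate and water handling and gap junctions were lower in 13 of 13 (median -0.05), where 77.5% of the highest level class were lower. At an unadjusted p under 0.05, 2 probe sets of each list were lower and 0 higher, against 7.68% lower over all probe sets and 10.5% in the highest class. In the first, Slc38a1, a glutamine transporter also used by neurons, differed by -0.23 ± 0.08 in 1 probe set and by -0.01 ± 0.05 in its other, and Slc7a10, an astrocytic serine transporter, by -0.09 ± 0.04. In the second, these were the potassium channel Kcnj16 at -0.14 ± 0.06 and the cation channel Trpv4, in the lowest level class, at -0.13 ± 0.04, and the urea transporter Slc14a1, at -0.11 ± 0.05, was not among them. The highest level class, which holds most of both lists, had a median of -0.04.

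Transcription factors of the astrocyte lineage were lower in 9 of 13 (median -0.05), with Id4 at -0.11 ± 0.05, Nfia at -0.10 ± 0.05 in 1 probe set and -0.06 ± 0.05 in its other, and Nfib at -0.07 ± 0.04 in 1 and -0.07 ± 0.05 in its other. The upper level classes hold most genes of the lists in this paragraph. Of their probe sets, 77.3% (second highest class) and 77.5% (highest) were lower over both experiments, with medians of -0.05 and -0.04. Metabolic genes were lower in 12 of 15 (median -0.04). Among them were Gys1, a glycogen synthase (-0.15 ± 0.04), Acsbg1, an acyl-CoA synthetase (-0.10 ± 0.04), and Cpt1a, which admits fatty acids to mitochondria (-0.10 ± 0.05). Receptors and other surface genes were lower in 14 of 15 (median -0.06), with the tight junction gene Cldn10 at -0.11 ± 0.05 in 1 probe set and -0.09 ± 0.04 in its other, the endothelin receptor Ednrb at -0.11 ± 0.06 and the receptor phosphatase Ptprz1 at -0.09 ± 0.05. Secreted and synapse-modifying genes were lower in 9 of 16 (median 0.00), and the proteoglycan gene Ncan was higher on 5 of 5 ethanol arrays than the control mean (0.10 ± 0.05) while Thbs2 (-0.13 ± 0.05) and Timp3 (-0.09 ± 0.05) had lower values.

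Most genes that astrocytes raise in a reactive state lay in the lower level classes. There 20.7% (lowest class) and 42.1% (second lowest) of probe sets were lower over both experiments. The reactive genes were lower in 6 of 17 measured, with a median of 0.02. At an unadjusted p under 0.05, 5 were lower and 1 was higher, where 7.68% of all probe sets were lower and 4.72% higher. Serping1, an inhibitor of complement C1, differed by -0.28 ± 0.07, Serpina3n, a serine protease inhibitor, by -0.18 ± 0.06, and Vim, which encodes the filament protein vimentin, by -0.15 ± 0.06. For Serping1 the difference was -0.09 in experiment 1 and -0.41 in experiment 2, and for Serpina3n -0.03 and -0.28, whereas for Vim it was -0.25 in experiment 1 and -0.08 in experiment 2. The other lower genes were Cp, which encodes the copper-binding ceruloplasmin (-0.16 ± 0.06), and Tm4sf1 (-0.11 ± 0.04), and the higher one was Lcn2, which encodes the inflammatory lipocalin that binds iron carriers (0.12 ± 0.05). These 3 were named after their values were seen. The 5 lower genes lay in the upper level classes, in which 15.3% (second highest) and 10.5% (highest) of probe sets were lower at that p, and Lcn2 lay in the lowest class. Serpina3n and Vim were the 2 of the 17 genes in the highest class, and the difference between the experiments was not significant for any gene of the list. None of the lists named here includes Gfap or the other 9 genes.

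**Figure D4:**
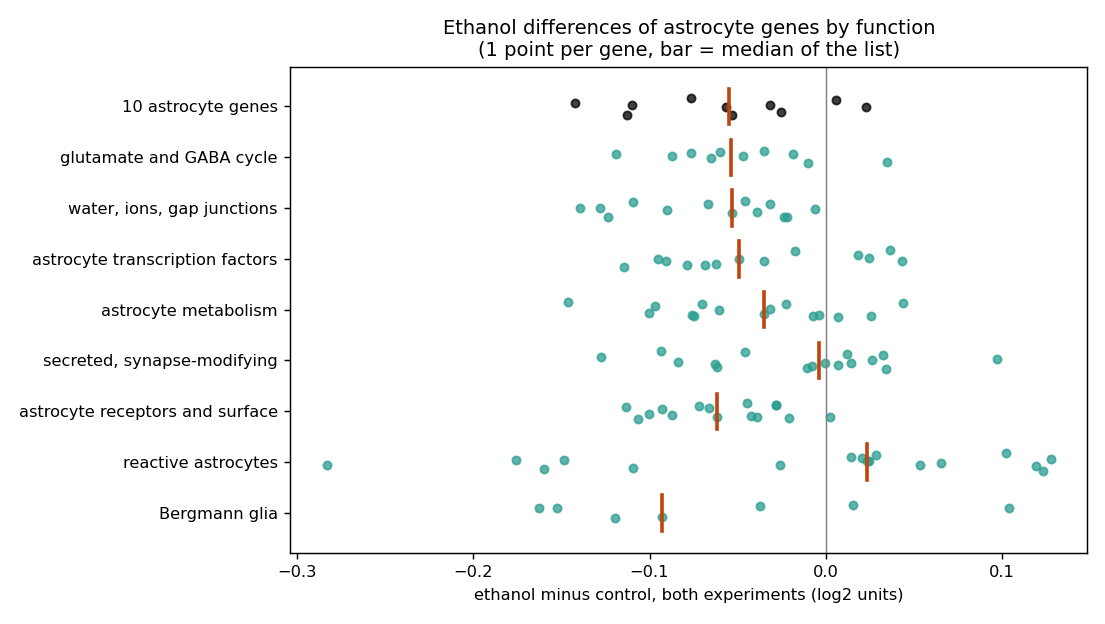
Ethanol minus control over both experiments (horizontal axis, log2 units) for each gene of the 10 astrocyte genes (black) and of 8 further lists of astrocyte function (green), with the median of each list as a bar. The medians of the first 7 further lists lie between -0.06 and 0.02, and Serping1, on the reactive list, is the lowest point at -0.28.

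Markers of other cells also differed on these arrays, though none passed adjusted p under 0.05, and their part in the values above was not tested. In experiment 2, 54.9% of all probe sets were lower, with 44.9% in the second lowest level class and 73.2% in the highest. In that experiment, where Gfap, Aqp4 and Gja1 separated, choroid plexus and ependymal markers were lower in 12 of 12 (median -0.18) and meningeal markers in 9 of 10 (median -0.18). Their medians were -0.14, -0.17 and -0.29 and -0.19, -0.15 and -0.25 on ethanol replicates 1, 2 and 3. Ethanol replicate 3, lowest on these lists, was also lowest for the 10 astrocyte genes, and without it their median in experiment 2 was -0.05. Myelin markers in that experiment had a median of -0.09 and microglial markers one of -0.09, while neuronal markers had one of -0.01. Cerebellar neuron markers were lower in 10 of 10 over both experiments (median -0.20), with medians of -0.14 and -0.53 on ethanol replicates 1 and 2 of experiment 1. The highest level class, which holds most of these markers, had 77.5% of its probe sets lower over both experiments. On ethanol replicates 1, 2 and 3 of experiment 2 the cerebellar medians were -0.04, 0.00 and -0.30. On the same arrays myelin markers had medians of -0.107, -0.107 and -0.0468. Genes of the glutamate and GABA cycle had -0.0487, -0.0615 and -0.0453, so not every list was lowest on ethanol replicate 3. The metabolic, neuronal, oligodendrocyte precursor, endothelial and pituitary lists were not lowest there either. Ethanol replicate 3 was the lowest ethanol array of experiment 2 for the remaining astrocyte lists and for microglial and cerebellar markers. On ethanol replicate 2 of experiment 1 Bergmann glia markers had a median of -0.19, and Aldoc, which Purkinje cells share, had its highest level of the experiment, at 13.00. Bergmann glia markers were lower in 5 of 7 over both experiments (median -0.09), with Fabp7 at -0.15 ± 0.06, Hopx at -0.12 ± 0.04 and Wif1 at 0.10 ± 0.04. Pituitary markers were higher in 8 of 8 over both experiments (median 0.34), by medians of 0.60 and 0.24 on the ethanol arrays of experiment 1 and of -0.04, 0.93 and -0.01 on ethanol replicates 1, 2 and 3 of experiment 2, with 5 of 8 markers below the control mean on replicates 1 and 3. Most of them lay in the lower level classes, where 20.7% (lowest) and 42.1% (second lowest) of probe sets were lower over both experiments.

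**Figure D5:**
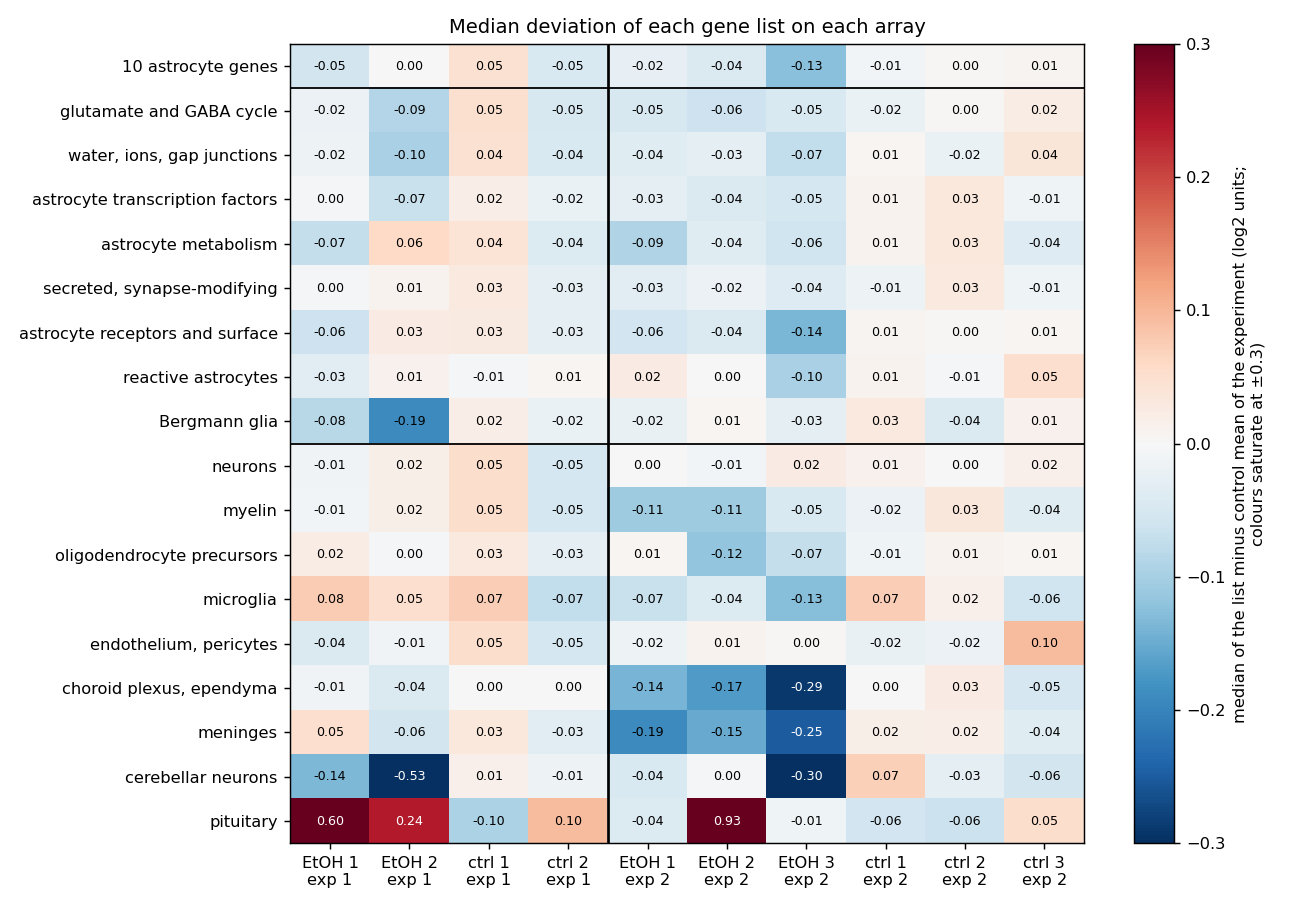
Median deviation of each gene list from the control mean of the experiment (colour and number, log2 units, colours saturating at ±0.3) on each array (columns, experiment 1 left of the line and experiment 2 right of it). The row of the 10 astrocyte genes runs from -0.13 to 0.05, with its lowest value on ethanol replicate 3 of experiment 2. That array is also lowest for choroid plexus, meningeal and microglial markers and for the receptor and reactive lists. It is not lowest for myelin markers or the glutamate and GABA cycle.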

How the data were processed

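The deposited table holds log2 levels, 1 per probe set and array, from Affymetrix whole-transcript arrays (200 ng of total RNA each, per the labels' protocols). The software, per the submitters' processing notes, was Partek 6.6. How background and normalization were handled is not given in the sources used here. For every probe set the means of experiments 1 and 2 were equal within 5.83e-05 log2 units, so levels were not compared between experiments. Of 35556 probe sets, 21789 carried 1 gene symbol in the platform annotation and were tested with limma 3.58.1 (R 4.3.3), all genes together, with Benjamini-Hochberg adjustment at 0.05. The joint fit modelled treatment with experiment as a covariate, and a fit of 4 group means gave each experiment and their difference. Array values ran from 4.27 to 15.4, array medians from 6.99 to 7.05, and correlations between arrays from 0.989 to 0.996. Lower quartiles were 5.85 to 5.87 on the ethanol arrays and 5.78 to 5.83 on the controls. Upper quartiles in experiment 1 were 8.942 and 8.980 on ethanol arrays, against 9.047 and 8.982 on controls. In experiment 2 they were 8.958 to 8.989, against 8.995 to 8.998. The quartiles of the ethanol arrays thus lay closer together, and their part in the level-dependent differences was not tested. The number of arrays limits the precision (median SE 0.0519 log2 units over both experiments). P-values measure the spread between pools. Single genes also had an exact permutation test of treatment within experiments (120 assignments). The fits were tested on simulated data.

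The 10 genes, the lists and the tests were chosen with earlier results of these data known. All 10 genes are described. From each other list at most 3 genes are named, those with the smallest unadjusted p over both experiments, apart from 3 further reactive genes named after their values were seen. For a list's median and its count of lower genes, several probe sets of a gene were averaged, whereas values of named genes and counts at an unadjusted p are per probe set. Replicate numbers are shared by the groups. Deviations of same-numbered arrays from their group means correlated from -0.15 to 0.23, too few values to show or exclude pairing. The main fits have no replicate block. Alternatives were 2 normalizations, 2 filters on dim probe sets, all probe sets, another variance prior, 2 weightings, an unmoderated model, a replicate block, no experiment term, each experiment alone and each array left out. Promoter windows come from RefSeq on GRCm38.p6. Figures were drawn with matplotlib 3.10.9.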

Additional observations from a re-analysis of the deposited data

How the results depend on the processing

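Over 21 alternative settings, 202 of 210 values of the 10 genes kept their direction, 8 changed sign and 0 passed adjusted p 0.05. The 2 filters, all probe sets, the other variance prior, the unmoderated model, the replicate block and no experiment term returned the reported differences exactly. Values from these settings could not change sign, and they count among the 202. Aldoc was -0.0169 after quantile normalization, -0.0218 after median centring and -0.00258 with array weights, and ran from -0.0276 to 0.0234 with each array left out. Slc1a2 was -0.00473 after median centring and ran from -0.00215 to 0.0344 with each array left out. Gjb6 was 0.00723 after quantile normalization. The cause was not tested. The median of the 10 genes in experiment 1 was 0.0166 after quantile normalization and ran from -0.0667 to 0.0172 with each array left out, the highest without control replicate 1. With each array left out it ran from -0.0737 to -0.0351 over both experiments and from -0.103 to -0.0511 in experiment 2, among these smallest in size without ethanol replicate 3 of experiment 2. Quantile normalization gave -0.028 over both and -0.0596 in experiment 2, and median centring -0.0825 and -0.129. Probe sets at adjusted p under 0.05, 0 as reported, were 3 in experiment 2 with a trended robust prior, 2 there with array weights, and 1 in experiment 1 from its own arrays. With each array left out they ran from 0 to 1 over both experiments, 0 to 235 in experiment 1, 0 to 1 in experiment 2, and 0 to 94 for the difference between experiments. The counts of 235 and 94 came without ethanol replicate 1 of experiment 1, which left 1 ethanol array there, assumed to vary like the other groups. With the replicate block the median over both experiments was -0.0551 and 0 probe sets passed in each comparison. Same-numbered arrays correlated at -0.0521 in experiment 1 and at 0.0062, -0.146 and 0.23 in experiment 2. Arrays with different numbers ran from -0.228 to 0.209 in experiment 2. In experiment 1 the 2 arrays of a group mirror each other around their mean, so only 1 independent value exists there. These values are too few to show whether the numbers pair the arrays. Each gene has 1 probe set, so taking the brightest probe set gave no other value. The number of arrays, with a median SE of 0.0479 log2 units for the 10 genes, limits what could be detected.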
